A study of Homo sapiens with 4 samples.

Results

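The acute-phase response genes described here are HP, ORM1, ORM2, CRP, SAA1, SAA2, SAA4, ITIH4, SERPINA3 and LBP, 10 of the 44591 genes listed for each library. They were chosen by symbol as plasma proteins of the hepatic acute-phase response, and all 10 have a row in the deposited tables. The libraries were labelled as HepG2, an established line of human liver cancer cells. The cells had been given siNC, which is a control siRNA, or siLINC01186, which is siRNA against the long noncoding RNA LINC01186 (SALIS). Each group held 2 libraries, numbered 1 and 2. All cells were transfected at about 70% confluency, kept without serum for 6 h and then with 10% serum for 24 h. The labels name no cytokine. Per the study, both numbers had the same siNC and different siLINC01186 oligos, so an oligo and a replicate number cannot be told apart within the siLINC01186 group. The labels do not say what else a number stands for, and p-values measure only the spread between these libraries.

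The acute-phase response is the change in plasma proteins that follows injury or infection. IL-6 and related cytokines signal through receptors that share IL6ST (gp130) to JAK kinases and STAT3, while IL-1 and TNF signal to NF-kappaB. With C/EBP factors these turn on positive acute-phase genes in hepatocytes, whereas albumin and other negative acute-phase proteins fall. The liver is the main source of most of these proteins, and transcripts such as HP and ORM1 are abundant in hepatocytes.

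The 10 genes were close to absent in all 4 libraries. Together they had 10 counts in siNC replicate 1, 8 in siLINC01186 replicate 1, 23 in siNC replicate 2 and 28 in siLINC01186 replicate 2, out of 17297245, 14968958, 15812803 and 16785571 counts. As CPM (counts for every 1000000 of the TMM-normalized library size) the sums were 0.597, 0.560, 1.42 and 1.58 in the same order. With 3 counts taken as the floor, a library could show levels down to between 0.169 and 0.210 CPM, which covers counting error only. Of the 10 genes, 7 had at most 3 counts in every library and 2 had none at all. Among all 19233 protein-coding genes listed, 4422 (23.0%) had at most 3 counts in every library.

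**Figure D1:**
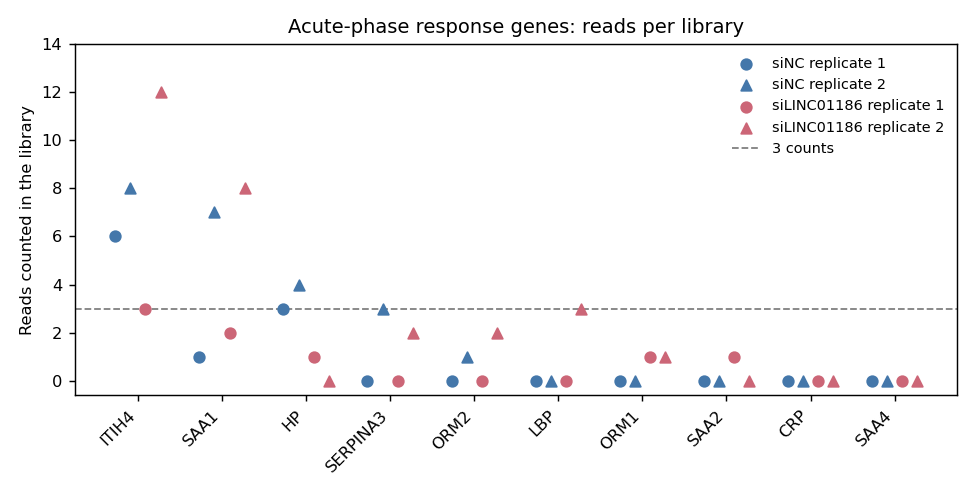
Reads counted for each of the 10 acute-phase genes (horizontal axis, ordered by their sum) in each library (vertical axis, reads), with colour for the group, marker shape for the replicate number and a dashed line at 3 counts. Only ITIH4, SAA1 and HP pass 3 counts in any library, and the highest value is 12 counts of ITIH4 in siLINC01186 replicate 2.

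The major inducible acute-phase proteins of human plasma are CRP, a pentraxin that binds phosphocholine on microbes and damaged cells, and the serum amyloid A proteins SAA1 and SAA2, which travel on high-density lipoprotein. CRP, on the minus strand of chr1:159682079-159684379 (hg19, the build named in the submitters' processing notes, as for all gene positions), had 0 counts in every library. SAA1, on the plus strand of chr11:18287772-18291524, had 1 count in siNC replicate 1, 2 in siLINC01186 replicate 1, 7 in siNC replicate 2 and 8 in siLINC01186 replicate 2. SAA2, on the minus strand of chr11:18259780-18270221, had 1 count in siLINC01186 replicate 1 and 0 in the other libraries. SAA4, the constitutive family member on the minus strand of chr11:18252902-18258384, had 0 counts in every library. Thus among the serum amyloid A genes SAA1 held all counts but 1, mostly in the libraries numbered 2.

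SAA1 and SAA2 are near-identical, and counting could split their reads. Of the 526 stretches of 150 nt, the read length, in the longest SAA1 transcript of GENCODE 29, 21.7% occur unchanged in an SAA2 transcript. No such stretch is shared with SAA4. The same holds for ORM1 and ORM2, where 21.0% of 653 stretches of ORM1 occur in ORM2, and to a lesser degree for HP and its neighbour HPR, where 2.63% of the HP stretches occur in HPR. HPR itself had 3, 1, 1 and 2 counts in siNC replicate 1, siLINC01186 replicate 1, siNC replicate 2 and siLINC01186 replicate 2. The level of each copy is therefore uncertain, but the sum over a pair was also low.

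HP encodes haptoglobin, which binds free hemoglobin. It lies on the plus strand of chr16:72088491-72094955 and was read 3 times in siNC replicate 1 and 4 times in siNC replicate 2, against 1 and 0 times in siLINC01186 replicates 1 and 2. ORM1 and ORM2 encode the alpha-1-acid glycoproteins, plasma carriers of basic and lipophilic compounds, and lie side by side on the plus strand at chr9:117085303-117088759 and chr9:117092069-117095536. ORM1 had 1 count in each siLINC01186 library and 0 in both siNC libraries. ORM2 had 1 count in siNC replicate 2, 2 in siLINC01186 replicate 2 and 0 in both libraries numbered 1. All these values of ORM1 and ORM2 are under the floor.

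SERPINA3 encodes alpha-1-antichymotrypsin, an inhibitor of neutrophil cathepsin G, and ITIH4 is a heavy-chain protein of the inter-alpha-trypsin inhibitor family. SERPINA3, on the plus strand of chr14:95078714-95090390, had 3 counts in siNC replicate 2, 2 in siLINC01186 replicate 2 and 0 in both libraries numbered 1. ITIH4, on the minus strand of chr3:52847006-52864717, had 6 counts in siNC replicate 1, 3 in siLINC01186 replicate 1, 8 in siNC replicate 2 and 12 in siLINC01186 replicate 2, the most of the 10 genes in every library. LBP, the plasma protein that hands bacterial lipopolysaccharide to CD14, lies on the plus strand of chr20:36974814-37005653. It had 3 counts in siLINC01186 replicate 2 and 0 in the other 3 libraries.

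STAT3 and C/EBP sites are the classical control elements of acute-phase promoters, so the 250 bases before the transcription start were read for the members with a RefSeq promoter (build GRCh38.p14). A window was at hand for 5 of the 10 genes, ORM1, CRP, SAA4, ITIH4 and SERPINA3. Searched on both strands, the STAT pattern TTCNNNGAA was found in 6.57%, the C/EBP pattern TTGCNNAA in 9.05% and the NF-kappaB consensus in 9.96% of all 35114 RefSeq windows of that length. ITIH4 had 1 STAT match, 74 to 66 bases before the start, and SAA4 had 3 C/EBP matches, all on the opposite strand. No pattern was found in the windows of CRP, ORM1 and SERPINA3, which says only that these letters are not there. The stretches with a match are given on the gene's strand, 5′ to 3′, with the match in capitals. These are descriptions of sequence, not of bound sites.
ITIH4, STAT, chr3:52830727-52830756, minus strand: agatcccaatTTCCCAGAAcctgcccccat
SAA4, C/EBP, chr11:18237020-18237049, minus strand: cccacactggaTTTTGCAAatacaactctt
SAA4, C/EBP, chr11:18236853-18236882, minus strand: tacccaaagaaTTGAGCAAaaaggactttg
SAA4, C/EBP, chr11:18236838-18236867, minus strand: gcaaaaaggacTTTGGCAAggcaggttgtt

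For the baseline level, the genes were ordered by the deposited TPM, which divides by gene length. In the siNC libraries SAA1 came first at 0.758 ± 0.815 TPM (SD, n = 2), from 0.181 TPM in replicate 1 and 1.33 TPM in replicate 2. HP followed at 0.322 ± 0.0760 TPM (SD, n = 2) and ITIH4 at 0.284 ± 0.0670 TPM (SD, n = 2). SERPINA3 had 0.128 ± 0.182 TPM (SD, n = 2) and ORM2 0.0806 ± 0.114 TPM (SD, n = 2), both from replicate 2 alone. ORM1, CRP, SAA2, SAA4 and LBP had 0 counts in both siNC libraries. No 2 neighbours in this order differed beyond their spread, since the SAA1 libraries lay on either side of both HP libraries and the HP and ITIH4 ranges overlapped.

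Over all 4 libraries, SAA1 had a mean of 0.794 TPM, and 34.8% of the protein-coding genes had a lower mean. ITIH4 had 0.278 TPM with 29.6% below, and HP 0.183 TPM with 27.3% below. The other members with reads ranged from 0.0137 TPM for SAA2 to 0.109 TPM for ORM2. The median protein-coding gene had 6.10 TPM. On the scale of length-corrected level, therefore, every member lay in the lower part of the distribution.

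**Figure D2:**
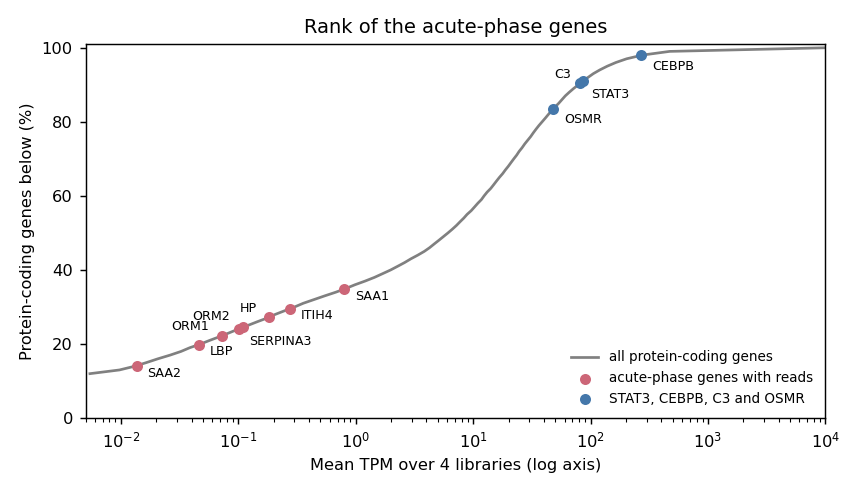
Percent of protein-coding genes with a lower mean (vertical axis) against mean TPM over the 4 libraries (horizontal log axis) for all protein-coding genes with reads (line), for the 8 acute-phase genes with reads and for 4 pathway genes (points). SAA1, at 0.794 TPM, has 34.8% of genes below it, while STAT3, OSMR, CEBPB and C3 lie above 80% of the axis; CRP and SAA4, at 0, are not drawn.

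The markers of hepatocytes were low as well. ALB (albumin), the defining hepatocyte transcript, had 0 counts in both libraries numbered 1, and 15 and 14 in siNC replicate 2 and siLINC01186 replicate 2. APOA1, the main apolipoprotein of high-density lipoprotein, had 0, 0, 21 and 20 counts in siNC 1, siLINC01186 1, siNC 2 and siLINC01186 2. AFP, the fetal albumin relative that HepG2 is known to secrete, had 2, 4, 6 and 16 counts, and TTR, SERPINA1, FGB and GPC3 had at most 17 counts in any library. Over these 7 hepatocyte and HepG2 markers the counts summed to 3, 8, 64 and 64, or between 0.179 and 3.96 CPM. The markers go against the HepG2 label, and the cells are therefore called here by their labels only.

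Markers of other cell types were given the same check. The leukocyte gene PTPRC had at most 2 counts and CD3E 0 in every library. Of the macrophage genes CD68 had 786 to 912 counts, CD163 at most 2 and MARCO at most 1. The endothelial genes had at most 7 (PECAM1) and 18 (VWF) counts. The fibroblast genes had 333 to 790 (COL1A1), 105 to 135 (COL1A2) and 40 to 92 (DCN) counts. What the lack of hepatocyte transcripts has to do with the low acute-phase genes was not tested, and in bulk RNA fewer cells of a type and less RNA per cell cannot be told apart.

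Of the genes upstream of the response, the receptors and most signalling factors had reads in every library, whereas several ligands were as low as the acute-phase genes. The lists of ligands, receptors and signal carriers were drawn up by role, and the genes named from them without a test were chosen after their values were seen. Among 8 ligands, LIF, an IL-6 family cytokine, had 550 to 788 counts, with a mean of 20.2 TPM, whereas IL6 itself had 13 to 27 counts (2.03 TPM) and TNF at most 4. IL1A and IL1B had at most 7 and 5 counts in any library, and OSM (oncostatin M) at most 1. All 7 receptors had reads, from 1.06 TPM for IL1R1 to 126 TPM for TNFRSF1A, the main TNF receptor. IL6ST, the shared signalling chain, had a mean of 25.8 TPM, OSMR, the oncostatin M receptor, 48.1 TPM and LIFR, the LIF receptor, 30.7 TPM. The mean TPM of IL6ST was thus higher than that of 72.8% of the protein-coding genes.

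Among 16 signalling and transcription factors, STAT3 had a mean of 81.9 TPM and CEBPB, a C/EBP factor induced in the acute phase, 269 TPM. FOXA2, a liver-enriched factor, was near absent, with 1 count in siLINC01186 replicate 2 and 0 elsewhere. Of 22 other positive acute-phase proteins, C3, the central complement component, was the highest at 86.0 TPM. FN1 (fibronectin) had 14.4 TPM and CFB (complement factor B) 10.5 TPM. At the other end, 7 of the 22 had at most 3 counts in every library, among them FGA and FGG of fibrinogen, HAMP (hepcidin) and APCS, which had 0 counts throughout. Positive acute-phase proteins therefore differed widely in level within the same libraries.

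**Figure D3:**
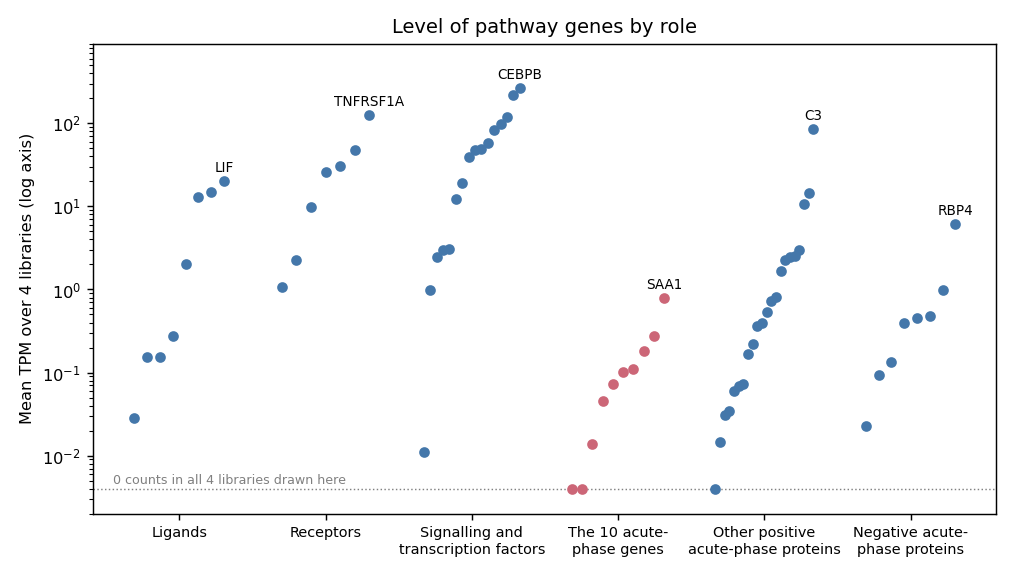
Mean TPM over the 4 libraries (vertical log axis) of each gene in 6 lists by role (horizontal axis), 1 point per gene, with the highest gene of each list named and genes without counts drawn on the dotted line. The 10 acute-phase genes end at 0.794 TPM (SAA1), while CEBPB reaches 269 TPM, TNFRSF1A 126 TPM and C3 86.0 TPM.

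The first comparison asked whether siRNA against LINC01186 changed the acute-phase genes. LINC01186, on the minus strand of chrX:46185359-46187109, was counted 15 times in siNC replicate 1, 12 in siLINC01186 replicate 1 and 14 in each library numbered 2. The summed rate ratio was 0.920, with a 95% exact conditional interval from 0.520 to 1.62 that covers counting error only. The libraries labelled siLINC01186 thus showed no detectable loss of the target at this depth, though a partial loss is not excluded. The study reported a knockdown of LINC01186 by qPCR in HepG2 cells. Over the 23942 genes whose counts over all libraries reached 5, edgeR's quasi-likelihood test called 0 genes at a Benjamini-Hochberg adjusted p under 0.05 and 289 (1.21%) at an unadjusted p under 0.05, while DESeq2's Wald test called 1 after adjustment. The limits the study used, a log2 fold change beyond 1 with an unadjusted p under 0.05, called 181 genes (0.756%). With the replicate number as a block, edgeR called 278 genes at an adjusted p under 0.05.

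Only 4 of the 10 acute-phase genes reached 5 counts and could be tested, HP, SAA1, ITIH4 and SERPINA3. Of these, 0 were called by either rule, 0 had an unadjusted p under 0.05, and DESeq2 called 0. HP gave the widest difference, 7 counts in the siNC libraries against 1 in those labelled siLINC01186. This gave a log2 fold change of -2.48 (standard error 1.49, adjusted p = 1.00, edgeR's quasi-likelihood test). The rate ratio of 0.147 had a counting interval from 0.00325 to 1.14, which includes no change. Within number 1 HP went from 3 counts to 1, a ratio of 0.391 with an interval from 0.00744 to 4.87. Within number 2 it went from 4 counts to 0. Both pairs were lower in the library labelled siLINC01186, but at 4 counts or fewer no difference was detectable.

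SAA1 and ITIH4 had nearly equal sums in the groups. SAA1 had 8 counts in the siNC libraries and 10 in those labelled siLINC01186, with a log2 fold change of 0.30 and a standard error of 1.08 (adjusted p = 1.00, edgeR). ITIH4 had 14 against 15 counts and a log2 fold change of 0.09 with a standard error of 0.78 (adjusted p = 1.00, edgeR). Both signs turned when 1 library was left out, with a range from -0.78 to 2.21 for SAA1 and from -1.0 to 0.66 for ITIH4, and in both cases without siNC replicate 1 or without siLINC01186 replicate 2. Within the numbers ITIH4 went from 6 to 3 counts (ratio 0.586, interval 0.0949 to 2.74) in number 1 and from 8 to 12 (ratio 1.36, interval 0.512 to 3.84) in number 2. SAA1 went from 1 to 2 in number 1 and from 7 to 8 (ratio 1.04, interval 0.329 to 3.36) in number 2. The siRNA groups thus overlapped for both genes.

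SERPINA3 had 3 counts in the siNC libraries and 2 in those labelled siLINC01186, all from number 2. Its log2 fold change of -0.54 had a standard error of 1.79 (adjusted p = 1.00, edgeR). ORM1, ORM2, SAA2 and LBP had at most 3 counts in either group, so no fold was formed. Across the pathway lists, none of the 7 ligands, 7 receptors, 15 signalling and transcription factors, 17 other positive and 6 negative acute-phase proteins tested was called at an adjusted p under 0.05 by edgeR in the fit on the group alone. At an unadjusted p under 0.05 there were 1 receptor and 1 factor, beside 1.21% of all genes tested. LIFR, the receptor with the highest mean CPM, had 3169 (number 1) and 2817 (number 2) counts with siNC, against 1885 and 2097 in the libraries labelled siLINC01186, with a log2 fold change of -0.54 and a standard error of 0.18 (adjusted p = 1.00, edgeR). NFKB1, the p105/p50 subunit of NF-kappaB, had 918 and 661 against 542 and 437 counts (log2 fold change -0.62). With the replicate number as a block, edgeR called LIFR (adjusted p = 0.000352), NFKB1 (0.00105) and the ligand IL11 (0.000283). Each was lower in the libraries labelled siLINC01186.

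The second comparison set the 2 libraries numbered 2 against the 2 numbered 1, whatever the siRNA. Here edgeR called 2158 genes at an adjusted p under 0.05 (9.01%), 1064 higher (4.44%) and 1094 lower (4.57%) in number 2. The study's limits called 1309 (5.47%), and 3.94% of the genes tested were called by them as higher. Of the 4 acute-phase genes tested, 0 were called after adjustment and 1, SAA1, was called at the limits. DESeq2, which gave no adjusted p for any of the 4, called 0 at an unadjusted p under 0.05. SERPINA3 and SAA1 reached the 5 counts needed for the test only with the libraries numbered 2, where they are higher, so the tested genes as a set say nothing of a direction.

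SAA1 had 7 and 8 counts in number 2 against 1 and 2 in number 1, or 0.442 ± 0.0117 against 0.0998 ± 0.0568 CPM (SD, n = 2 each). Both siRNA groups contributed, and the libraries of the numbers did not overlap. The log2 fold change of SAA1 was 2.10 (standard error 0.98, unadjusted p = 0.0475 in edgeR's quasi-likelihood test, adjusted p = 0.207). The rate ratio was 4.58, with a counting interval from 1.29 to 24.7. This call at the study's limits was lost when any 1 of the 4 libraries was left out. It was also lost when SAA1 and SAA2 were summed (log2 fold change 1.71, unadjusted p = 0.0872 in edgeR).

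ITIH4 had 8 and 12 counts in number 2 against 6 and 3 in number 1, or 0.585 ± 0.127 against 0.284 ± 0.105 CPM (SD, n = 2 each). Its log2 fold change of 1.01 had a standard error of 0.71 (adjusted p = 0.434, edgeR), and the rate ratio of 2.03 had an interval from 0.885 to 5.07. SERPINA3 had 3 and 2 counts in number 2 and none in number 1 (adjusted p = 0.244, edgeR). The lower counting limit of its rate ratio was 0.839, so no change is included. HP had 4 counts in each number, with 3 and 1 in number 1 and 4 and 0 in number 2. LBP and ORM2 had 3 counts each in number 2 and 0 in number 1, at the floor. The differences of ITIH4, SERPINA3, LBP and ORM2 were not detectable at this depth.

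Other plasma proteins of the liver were called between the numbers. Of the 17 other positive acute-phase proteins tested, 5 were higher in number 2 and 0 lower at an adjusted p under 0.05 (edgeR), beside the 4.44% of all genes tested. LRG1, leucine-rich alpha-2-glycoprotein, had 72 and 50 counts in number 2 against 7 and 10 in number 1 (log2 fold change 2.70 with a standard error of 0.40, adjusted p = 0.00107, edgeR). C3 had 4811 and 4261 counts against 2285 and 2498 (log2 fold change 0.79, adjusted p = 0.00312, edgeR). FN1 rose by 0.71 and CFB by 0.78 on the log2 scale, and SERPINA1, alpha-1-antitrypsin, had 17 and 7 counts in number 2 against 0 and 1 in number 1. Both siRNA groups showed each of these differences. SERPINA1 reached 5 counts only with the libraries numbered 2, as did FGB, with 3 and 4 counts there against 0 and 1. These 2 genes therefore say nothing of a direction among the 17.

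Of the 8 negative acute-phase proteins listed, 6 were tested. At an adjusted p under 0.05 (edgeR), 4 of these were higher in number 2 and 0 lower, beside 4.44% and 4.57% of all genes tested. The 5 positive ones called were also higher in number 2. These 4 and SERPINA1 passed the filter only through the libraries numbered 2, so no shared direction is read from them. ALB had no counts in number 1, and the lower counting limit of its rate ratio was 6.75 (adjusted p = 0.00655, edgeR). APOA1 had none there either, with a lower limit of 9.72 (adjusted p = 0.00219, edgeR). TF (transferrin) had 26 and 12 counts in number 2 against 0 and 1 in number 1, and AHSG (fetuin-A) 12 and 11 against 1 and 0, with adjusted p of 0.00749 and 0.0258 (edgeR). All 4 reached 5 counts only with the libraries numbered 2, and a gene of this kind could be tested only if it differed. DESeq2 gave no adjusted p for 5 of these 6 genes because of their low means. These genes remained at 26 counts or fewer in the libraries where they were seen, apart from RBP4 with 48 to 64 counts in every library.

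**Figure D4:**
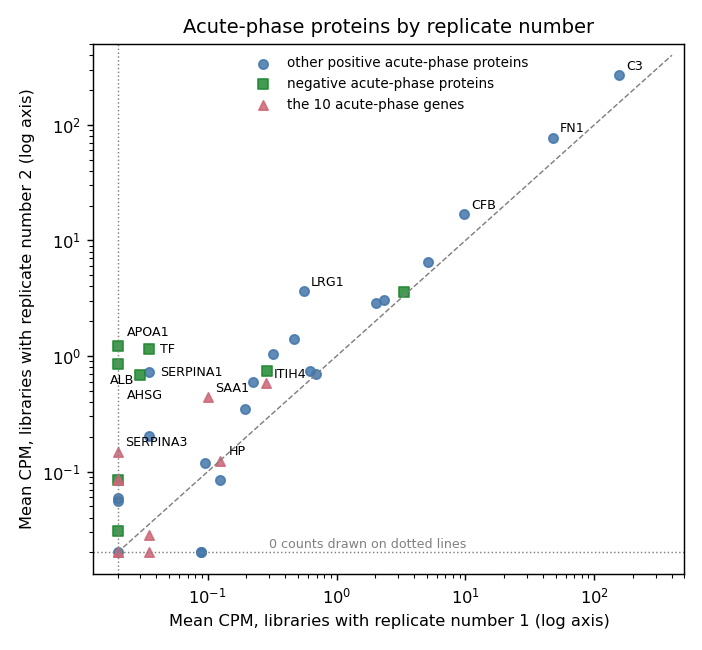
Mean CPM in the 2 libraries numbered 2 (vertical log axis) against the 2 numbered 1 (horizontal log axis) for the 10 acute-phase genes (triangles), 22 other positive (circles) and 8 negative (squares) acute-phase proteins, with a dashed line of equality and genes without counts drawn on the dotted lines. APOA1, ALB, TF, AHSG and SERPINA1 lie far above the line, SAA1 at 0.0998 and 0.442 CPM less so, and HP lies on it.

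Among the regulators, CREB3L3 and HNF4A, both liver-enriched transcription factors, were higher in number 2. CREB3L3, known to take part in the hepatic acute-phase response, had 91 and 127 counts against 22 and 17 (log2 fold change 2.34 with a standard error of 0.28, adjusted p = 0.000247, edgeR). HNF4A had 161 and 188 counts against 79 and 83 (log2 fold change 0.97, adjusted p = 0.00821, edgeR). Of the 15 factors tested, these 2 were called higher and 0 lower in this fit, beside 4.44% and 4.57% of all genes tested. With the group as a term, 4191 of the 23942 genes tested were called. CEBPA (adjusted p = 0.00594, edgeR) and JAK1 (0.0161) were then also called higher and NFKB1 (0.00168) and RELA (0.00276) lower in number 2. The ligand CLCF1, an IL-6 family cytokine, was lower in number 2, with 180 and 181 counts against 274 and 280 (log2 fold change -0.75, adjusted p = 0.0133, edgeR). In the fit without the group, CLCF1 was the only one of the 7 ligands tested to be called, beside 9.01% of all genes tested. IL11, of the same family, had 242 and 123 counts in number 2 against 385 and 219 in number 1 and was called lower with the group as a term but not without it (adjusted p = 8.12e-06 and 0.0740, edgeR). None of the 7 receptors was called in the fit without the group, and IL1R1, the receptor with the smallest p, had 60 and 69 counts in number 2 against 33 and 36 in number 1 (adjusted p = 0.0989, edgeR, and 0.0454 with the group as a term).

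The 7 hepatocyte markers summed to 0.179 and 0.560 CPM in number 1 and to 3.96 and 3.60 CPM in number 2. Most of the counts in number 2 come from ALB, APOA1 and SERPINA1, which had at most 1 count in a library numbered 1. Like TTR and FGB, they are also in the acute-phase lists. AFP (adjusted p = 0.220) and FGB (0.368) were not called by edgeR, and GPC3 had 3 counts in number 1 and 2 in number 2. Of the fibroblast genes COL1A1 was higher in number 2 (log2 fold change 0.77, adjusted p = 0.00779, edgeR), while COL1A2 (adjusted p = 0.950) and DCN (0.238) were not called. The endothelial genes PECAM1 (adjusted p = 0.188), with 7 and 4 counts in number 2 against 0 and 1 in number 1, and VWF (0.854) were not called by edgeR. The macrophage gene CD68 was not called either. The part of these in the difference of SAA1 was not tested.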

How the data were processed

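Poly(A) RNA was sequenced as paired ends of 150 bp in 4 libraries, 2 per group, grouped and numbered by the sample labels. Per the file headers, the files deposited by the authors hold a raw count and a TPM value for each gene, and TPM equals the count divided by the deposited gene length and scaled to 1000000 per library. The submitters' processing notes name hg19, HISAT2, HISAT, TopHat2 and Bowtie2 without role or version, and the counting program, annotation and strand setting are not given in the sources used here.

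Counts were compared in R 4.3.3 with edgeR 4.0.16 (at least 5 counts summed over 4 libraries, TMM, quasi-likelihood test, no block, Benjamini-Hochberg adjustment over all genes tested). The same fit was run on the group and on the replicate number. DESeq2 1.42.0 was an alternative, with size factors, filters, robust estimation, a block, a summed count of near-identical genes and the omission of each library. Rate ratios have exact conditional intervals at 95%. Sequences were handled with Python 3.11.15. The fit was tested on simulated data. The genes changed there were all read more than the acute-phase genes described here, so that run does not bear on these.

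The members and lists were chosen with earlier results of these data known. Named were the members, LINC01186, the cell type markers and, from each list, up to 4 genes called per comparison (or, with none, the receptor with the highest mean CPM and those with the smallest p). Other list genes were chosen after their values were seen.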

Additional observations from a re-analysis of the deposited data

How the results depend on the processing

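At 12 counts or fewer per library, a difference of the acute-phase genes must be large to be detected. Under every alternative run, none of the 10 was called at an adjusted p under 0.05 in either comparison. Some of these runs could not have called them. The filterByExpr filter left none of them to test, and DESeq2 gave no adjusted p for the 4 it fitted between the numbers. Between the groups, all genes called at an adjusted p under 0.05 numbered 5 with at least 1 count in any library as the only filter, 1 with DESeq2's Wald test and 0 to 6 when each library was left out. At the study's limits they numbered 46 with edgeR's filterByExpr, 27 with DESeq2 and 248 to 375 when each library was left out. With the replicate number as a block, 278 genes were called at an adjusted p under 0.05, and the log2 fold change of ITIH4 turned to -0.0063. Of the pathway lists, IL11 (adjusted p = 0.000283), LIFR (0.000352) and NFKB1 (0.00105) were then called by edgeR, each lower in the library labelled siLINC01186 in both numbers. Same-numbered libraries deviated together, with a correlation of 0.65 across 13725 genes, but only 2 pairs exist and the labels say nothing of a shared batch, so the block was not used for the results. By group means of TPM, ITIH4 was at -0.069. Leaving out 1 library gave -1.0 to 0.66 for ITIH4, -0.78 to 2.21 for SAA1 and -1.49 to 0.28 for SERPINA3, which turned without siLINC01186 replicate 1. HP ranged from -4.90 to -1.51 over the 3 fits in which it kept 5 counts. The cause of these sign changes was not tested.

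Between the numbers, genes called at an adjusted p under 0.05 were 4191 with the group as a term and 1294 (without siLINC01186 replicate 1) to 3332 (without siNC replicate 2) when a library was left out, and those at the study's limits were 655 with DESeq2. The single call of SAA1 at the limits fell to 0 under filterByExpr, the filter of 1 count, DESeq2, the group as a term, the summed SAA and ORM genes and the omission of each library. Under filterByExpr SAA1 was not tested, and elsewhere its log2 fold change stayed positive, at 2.10 with the group as a term or the filter of 1 count, 2.17 with DESeq2, 1.71 summed and 1.61 to 2.74 when a library was left out. HP turned to 0.012 without TMM and to 0.077 by TPM, and ranged from -0.56 to 0.91 when a library was left out, above 0 without siNC replicate 1 or siLINC01186 replicate 2. The count of negative acute-phase proteins called was 0 with DESeq2, which gave most of them no adjusted p, and 3 to 4 when a library was left out. For the other positive ones it was 4 to 7 over all alternatives. These 2 list counts were added after the data were seen.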

Other observations

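A small set of genes was near absent in one replicate number. A rule set after the data were seen was applied to the 19233 protein-coding genes only. It asked for at most 2 counts summed over the libraries of one number and at least 20 over those of the other. By this rule 12 protein-coding genes were near absent in number 1 only and 1 in number 2 only. The 12 included APOA1, TF, ALB, SERPINA1, AHSG and APOB, the structural protein of very-low-density lipoprotein, which had 27 and 10 counts in siNC replicate 2 and siLINC01186 replicate 2 and 1 and 0 in the libraries numbered 1. PZP, a relative of alpha-2-macroglobulin, had 6 and 14 counts in number 2 and 0 and 2 in number 1. HIST1H2BA had all of its 20 counts in siLINC01186 replicate 2. PZP (adjusted p = 0.0926) and HIST1H2BA (0.0828) were not called between the numbers by edgeR. The rest of the 12 were GALNTL6, LOC283710, PLA1A and C11orf94, each called between the numbers by edgeR (adjusted p from 0.0215 to 0.0495). OLFM4, the gene near absent in number 2, had 27 counts in siNC replicate 1 and 4 in siLINC01186 replicate 1 against 0 and 2. None of the 10 acute-phase genes met this rule. Only ITIH4 reached 20 counts in either number, so the rule could not have picked the others.

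Some acute-phase genes with few or no reads lie beside well-read genes. HPS5, the next protein-coding gene above the SAA cluster in coordinates, had 609 to 790 counts per library, and AKNA, next above ORM2, had 385 to 546. RALGAPB, the next above LBP, had 1348 to 1777 counts. On the other hand ITIH3, beside ITIH4, had at most 2 counts in any library, and GSC, the next above SERPINA3, had 0.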
